A study of Mus musculus with 5 samples.

Results

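The response of Hk2/Pkm2-labelled mouse embryonic stem cells to 24 hours without leukemia inhibitory factor (LIF) was read from a pair of RNA libraries, 1 from cells cultured with LIF and 1 from cells after the withdrawal. Of 22267 genes with a value in the series, 12940 stood above 0 FPKM in both libraries and make up the comparison. FPKM relates the fragments on a transcript to its length and to the mapped fragments of the library, and was summed over the RefSeq transcripts of a gene. Every ratio below is the difference of log2(FPKM + 1) between the 24 hour library and the LIF library, so that a positive value means higher after withdrawal. The added 1 makes the ratio of a low gene smaller than its true change. With 1 library a side no difference has a replicate check, no test was run, and 2-fold (a log2 ratio of at least 1 in size) is a description of these libraries.

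Both libraries are labelled as E14 mouse embryonic stem cells, strain C57BL/6, that overexpress Hk2 (hexokinase 2) and Pkm2 (the M2 form of pyruvate kinase). The sources used here do not name the promoter of the introduced genes or say whether the cells are 1 clone. The LIF library is labelled as cultured with the cytokine. For the 24 hour library the label records 24 hours of culture without LIF and adds that LIF was given, without saying when or for how long. The series also holds normal E14 cells under both of these cultures, which share no library with the pair, and Hk2/Pkm2-labelled cells after 40 days without LIF.

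LIF binds the LIF receptor and gp130 on mouse embryonic stem cells. JAK kinases on these receptors then phosphorylate STAT3, which enters the nucleus and switches on genes such as Socs3, a feedback inhibitor of the same pathway, and Klf4, a transcription factor of the naive state. Without this signal, cells in serum or basal medium leave the naive state, in which they resemble the early epiblast, and turn on genes of the later, primed epiblast such as Otx2 and Fgf5, while Oct4 (Pou5f1) persists for some time.

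The 2 libraries were of similar depth, with 1 fragment worth 1.13 times as much FPKM in the 24 hour library, and 9032 genes with LIF and 9091 after 24 hours reached 1 FPKM. Hk2, which phosphorylates glucose, stood at 98.6 FPKM with LIF and at 59.0 FPKM after 24 hours (log2 ratio -0.73), and normal cells had 76.2 and 49.7 FPKM. The level of Pkm, the pyruvate kinase of these cells, was 567 FPKM and then 564 FPKM (log2 ratio -0.01), and normal cells had 509.8 and 611 FPKM. Neither gene thus stood 2-fold above normal cells in either culture, and the libraries are named by their label. The table does not split Pkm into its M1 and M2 forms. Ddx3y, a Y-linked RNA helicase, was at 0.0225 and 0.013 FPKM in the pair and at 11.8 FPKM in both normal libraries. Uty, also Y-linked, had the same order, with 0.00973 and 0.0113 FPKM in the pair and 3.25 and 3.74 FPKM in the normal libraries. The Y-linked gene Eif2s3y was present throughout. Its level in the pair was 16.3 FPKM with LIF and 22.6 FPKM after 24 hours, while the normal libraries held 34.1 and 35.1 FPKM. In Hk2/Pkm2-labelled cells after 40 days, Ddx3y stood at 1.79 FPKM. Ddx3y, Uty and Eif2s3y thus all stood lower in both libraries of the pair than in both normal libraries, Eif2s3y by far less. The reason was not tested.

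The labelled cell type was checked against 10 embryonic stem cell markers, which were all above 0 in both libraries. Their summed level was 3493 FPKM with LIF and 3051 FPKM after 24 hours. Most markers of other cell types were low, and the main exceptions are named here. Of the 15 endoderm markers, 12 were under 1 FPKM in both libraries, and their sum (491 and 247 FPKM) was nearly all Apoe, a lipid carrier (485 and 243 FPKM). Afp, of visceral endoderm, was at 0 in both. Mesoderm and primitive streak markers summed to 4.11 and 7.38 FPKM, and T (brachyury), which marks the streak, was at 0.133 FPKM with LIF and listed at 0 after 24 hours. Of the 11 on this list above 0 in both, 1 was 2-fold higher and none lower, against 3.18% and 3.47% of all genes. It was Eomes (0.691 and 3.58 FPKM, log2 ratio 1.44), with 0.423 and 1.21 FPKM in normal cells. Neural ectoderm markers summed to 57.9 FPKM with LIF, mostly Tubb3 (48.4 FPKM). After 24 hours they summed to 13.8 FPKM, with Sox3 at 5.63 FPKM and Tubb3 at 3.27 FPKM. Trophoblast markers summed to 18.1 and 17.1 FPKM, with Elf5 listed at 0 in both. Eomes stands on this list too and was its 1 gene 2-fold higher of 12, while 2 were lower. Fibroblast and feeder markers summed to 212 and 113 FPKM through Vim, Lgals1 and Ccn2, while the fibroblast collagens Col1a1 and Col3a1 did not pass 0.2 FPKM. Blood markers summed to 1.89 and 3.21 FPKM. In bulk RNA, fewer cells that make a transcript and less transcript per cell cannot be told apart.

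After 24 hours 411 of the 12940 genes stood at least 2-fold higher (3.18%) and 449 at least 2-fold lower (3.47%), together 860 or 6.65%. Ratios were centred near 0, with a median of 0.007 and quartiles of -0.16 and 0.18. At 4-fold 63 genes were higher and 71 lower, and at 8-fold 14 and 14. Past 16-fold stood 1 gene on the higher side, the kinase gene Pim2, and 5 on the lower side. The share of 2-fold genes depended on level: it was 0.727% of the 3987 genes with a mean under 1 FPKM, 11.1% of the 4448 genes from 1 to 10 FPKM, 7.77% of the 4016 genes from 10 to 100 FPKM and 4.91% of the 489 genes above that. In this highest class 5 genes were 2-fold higher and 19 were 2-fold lower.

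**Figure D1:**
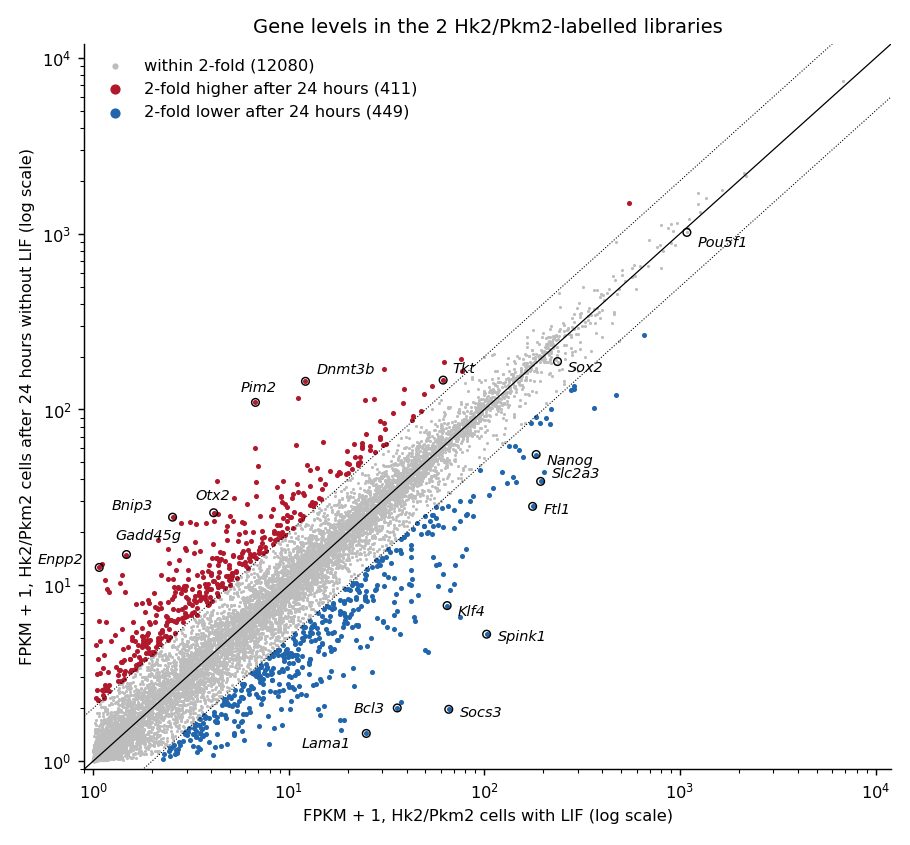
Level of each of the 12940 genes with LIF (x axis) and after 24 hours without LIF (y axis), both as FPKM + 1 on log axes, with red for 2-fold higher, blue for 2-fold lower and dotted lines at 2-fold. Socs3 and Lama1 lie far below the diagonal, Pim2 and Dnmt3b far above it, and Pou5f1 (1084 and 1016 FPKM) lies on it.

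Because STAT3 and Oct4 bind known DNA motifs, the 250 bases before the start of the genes were searched on both strands for TTCNNNGAA, the STAT motif, and ATTTGCAT, the octamer bound by Oct4, together with TCAAGGTCA (Esrrb type) and TGANTCA (AP-1). Sequences are those of RefSeq on GRCm38.p6, and 675 of the 860 2-fold genes had one. Printed first are promoters of some 2-fold genes that hold a STAT match, with the match in capitals. They were not picked by size of ratio alone, and others with a match, such as Klk10 (log2 ratio -2.53), are not printed. Socs3 (chr11:117969367-117969616, minus strand, match from base -154 counted from the gene's start) and Esrrb (chr12:86360867-86361116, plus strand, from -178) were lower after 24 hours. Otx2 (chr14:48665110-48665359, minus strand, from -113) was higher.
Socs3: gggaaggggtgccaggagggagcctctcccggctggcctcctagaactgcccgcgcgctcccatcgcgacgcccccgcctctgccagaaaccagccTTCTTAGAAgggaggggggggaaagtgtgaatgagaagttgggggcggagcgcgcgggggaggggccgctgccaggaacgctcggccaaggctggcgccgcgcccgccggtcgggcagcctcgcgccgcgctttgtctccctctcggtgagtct
Esrrb: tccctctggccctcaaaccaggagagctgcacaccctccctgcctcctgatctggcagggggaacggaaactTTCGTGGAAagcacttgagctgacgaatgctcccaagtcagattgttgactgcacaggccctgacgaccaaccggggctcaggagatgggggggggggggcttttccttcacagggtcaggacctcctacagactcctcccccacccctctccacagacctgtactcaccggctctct
Otx2: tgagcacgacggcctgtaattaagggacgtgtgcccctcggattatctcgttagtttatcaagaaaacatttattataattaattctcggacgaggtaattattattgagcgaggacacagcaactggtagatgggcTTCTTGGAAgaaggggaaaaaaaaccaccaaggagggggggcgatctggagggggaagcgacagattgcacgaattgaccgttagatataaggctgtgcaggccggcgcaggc
The next set holds octamer matches, in capitals on either strand. Pim2 (chrX:7878056-7878305, plus strand) has a pair of matches, from -202 and -123, and Gadd45g (chr13:51846425-51846674, plus strand) has 1 from -103, and both genes were higher. Zfp42 (chr8:43307010-43307259, minus strand) has 1 from -186 and was lower.
Pim2: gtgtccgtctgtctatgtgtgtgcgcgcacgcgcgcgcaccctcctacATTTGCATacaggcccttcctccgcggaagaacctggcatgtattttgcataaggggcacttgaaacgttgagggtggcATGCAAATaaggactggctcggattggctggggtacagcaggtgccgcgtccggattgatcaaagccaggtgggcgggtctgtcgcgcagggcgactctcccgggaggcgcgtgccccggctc
Gadd45g: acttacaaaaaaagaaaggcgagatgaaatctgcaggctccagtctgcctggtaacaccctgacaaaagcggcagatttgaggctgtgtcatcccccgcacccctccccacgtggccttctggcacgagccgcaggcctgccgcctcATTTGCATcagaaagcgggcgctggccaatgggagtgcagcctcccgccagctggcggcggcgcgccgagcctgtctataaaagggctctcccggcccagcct
Zfp42: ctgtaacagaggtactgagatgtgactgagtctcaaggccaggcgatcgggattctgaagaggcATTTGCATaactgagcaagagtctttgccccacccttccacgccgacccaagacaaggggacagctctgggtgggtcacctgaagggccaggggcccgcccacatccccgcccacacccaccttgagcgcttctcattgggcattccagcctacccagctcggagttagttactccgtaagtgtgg
Each printed promoter holds matches to the 1 motif named for it and to none of the others. A STAT match stood in 6.47% of the 464 promoters of 2-fold lower genes, 6.47% of the 448 promoters of 2-fold higher genes and 6.07% of the 12858 promoters of all genes compared. For the octamer these shares were 2.37%, 2.23% and 1.39%, for AP-1 4.74%, 4.46% and 4.55%, and for the Esrrb type 0.0%, 0.223% and 0.272%. Over all 32851 promoters of the table the shares were 7.02% (STAT), 1.6% (octamer), 6.75% (AP-1) and 0.387% (Esrrb type). Promoters of lower and higher genes thus held the STAT motif equally often. A match is a run of letters, not a bound site, and this window leaves out distal enhancers.

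Among the LIF receptor and JAK-STAT3 components, 20 of 22 were above 0 in both libraries, 2 were 2-fold lower and none was 2-fold higher, against 3.47% and 3.18% of all genes, with a median log2 ratio of -0.20. The 2 lower genes are themselves targets of the pathway. Socs3 (mm9 chromosome 11, 117827393 to 117831361), the inhibitor of JAK and gp130, had the lowest ratio of all genes. It stood at 64.8 FPKM with LIF and at 0.97 FPKM after 24 hours (log2 ratio -5.06), and at 65.3 and 2.25 FPKM in normal cells (-4.35). Stat3, the transcription factor, stood at 29.3 and 5.28 FPKM (-2.27), and at 28.2 and 6.26 FPKM in normal cells (-2.01). The upstream members moved little. The shared receptor subunit gp130 (Il6st) stood at 3.01 and 2.65 FPKM, the kinase Jak1 at 10.9 and 8.83 FPKM, and the adaptor phosphatase Ptpn11 at 18.6 and 18.2 FPKM. Lifr, the LIF receptor itself, was at 9.85 FPKM with LIF and listed at 0 after 24 hours, as in normal cells (2.96 FPKM, then listed at 0). A 0 from this kind of estimate can be a failed fit, so no fold is given for it. Jak3, a kinase of immune cytokine receptors that is on none of the lists, was lower (15.3 and 3.44 FPKM, -1.88), and was chosen after its value was seen.

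Of 28 LIF and STAT3 targets in the table, 27 were above 0 in both libraries. Of these, 15 were 2-fold lower and none was 2-fold higher, against 3.47% lower over all genes, and the median log2 ratio was -1.17. Spink1, a secreted trypsin inhibitor, stood at 102 FPKM with LIF and at 4.27 FPKM after 24 hours (-4.28). Bcl3, a nuclear cofactor of NF-kB, stood at 34.9 and 1.0 FPKM (-4.16). Normal cells had 105 and 8.17 FPKM of Spink1 and 49.8 and 2.77 FPKM of Bcl3, so that both genes were low after withdrawal in both kinds of cell. Junb, an AP-1 subunit, stood at 33.6 and 5.76 FPKM (-2.36). Icam1, an adhesion receptor, stood at 22.0 and 3.47 FPKM (-2.37), and Mras, a Ras-like GTPase, at 4.23 and 0.453 FPKM (-1.85). Some listed targets stayed within 2-fold. Myc stood at 36.1 and 48.8 FPKM (0.42), Pim1 at 26.4 and 18.1 FPKM (-0.52) and Sgk1 at 110.3 and 105 FPKM (-0.07).

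The naive pluripotency factors showed the lowest median of the lists with at least 10 members above 0, -1.68 over 21 of 23 genes, with 14 genes 2-fold lower, against 3.47% of all genes, and none 2-fold higher. Many of these are STAT3 targets as well, so the lists overlap. Tbx3, a T-box factor that sustains self-renewal, stood at 50.7 FPKM with LIF and at 3.15 FPKM after 24 hours (-3.64). Klf4 (mm9 chromosome 4, 55540013 to 55545347) stood at 63.5 and 6.66 FPKM (-3.07), with nearly the same values in normal cells, 53.1 and 5.48 FPKM (-3.06). Tfcp2l1, which STAT3 induces directly, stood at 68.6 and 9.13 FPKM (-2.78). The other Kruppel-like factors were lower too. Klf2 stood at 199.9 and 43.1 FPKM (-2.19) and Klf5 at 130 and 37.0 FPKM (-1.78). The nuclear receptor Esrrb stood at 139 and 40.3 FPKM (-1.76), the homeobox factor Nanog at 183 and 54.5 FPKM (-1.73), and the kinase coactivator Tcl1 at 86.9 and 23.7 FPKM (-1.83). Zfp42 (Rex1), a standard reporter of the naive state, was lower by less, at 278 and 128 FPKM (-1.11). Nanog, Esrrb and Zfp42 still stood at or above 40 FPKM after 24 hours. Pecam1, an adhesion protein on this list, is not among the 21, since it went from 4.25 FPKM to a listed 0. Fgf4, a growth factor on this list, was not lower (69.7 and 84.9 FPKM, 0.28).

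The core pluripotency factors held their level. All 18 were above 0 in both libraries, with a median of 0.21. Of these, 1 was 2-fold lower and 1 higher, near the 3.47% and 3.18% of all genes. Pou5f1 (Oct4) stood at 1084 and 1016 FPKM (-0.09), Sox2, its DNA-binding partner, at 236 and 186 FPKM (-0.34), and Dppa5a, an RNA-binding protein of pluripotent cells, at 816 and 794 FPKM (-0.04). Utf1, a chromatin factor, stood at 318 and 499 FPKM (0.65). The 1 member that was 2-fold lower was Nanog, which also stands in the naive list. The 1 that was 2-fold higher was Trim71, a let-7 microRNA target, at 7.70 and 35.0 FPKM (2.05). Normal cells had 36.1 FPKM of Trim71 with LIF and 9.43 FPKM after 24 hours, the opposite order.

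Primed epiblast factors had the highest median of these lists, 1.55 over 22 of 25 genes, with 13 genes 2-fold higher and none 2-fold lower, against 3.18% of all genes higher. Pim2 (mm9 chromosome X, 7455388 to 7460558), a serine/threonine kinase, had the highest ratio of the comparison, 5.76 FPKM with LIF and 109 FPKM after 24 hours (4.02). Normal cells went the same way, from 10.4 to 71.3 FPKM (2.67). The 2 other Pim kinases did not follow it, since Pim3 stood at 109 and 34.7 FPKM (-1.63) and Pim1 stayed within 2-fold. Otx2, the homeobox factor of the primed epiblast, stood at 3.13 and 24.9 FPKM (2.65), and at 1.20 and 20.7 FPKM in normal cells (3.30). Pou3f1 (Oct6), a POU factor of the same state, stood at 5.78 and 37.7 FPKM (2.52). Fgf15, a fibroblast growth factor, stood at 4.23 and 30.2 FPKM (2.58). Fgf5, the classic marker of primed cells, came from almost nothing, 0.0329 FPKM with LIF and 3.56 FPKM after 24 hours (2.14), and normal cells had 0.0685 and 0.52 FPKM. Sall2, a zinc finger factor, stood at 1.13 and 17.0 FPKM (3.08), Grhl2, a Grainyhead factor that maintains epithelium, at 1.80 and 21.7 FPKM (3.02), and Lef1, a Wnt-responsive factor, at 0.202 and 8.16 FPKM (2.93). Sox11 (3.34 and 12.1 FPKM), Fzd2 (1.56 and 6.31 FPKM) and Sox3 (1.96 and 5.63 FPKM) were 2-fold higher from a low start. Not every member was higher, as Nodal stood at 26.3 and 18.2 FPKM (-0.51) and Etv4 at 54.8 and 35.1 FPKM (-0.63).

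**Figure D2:**
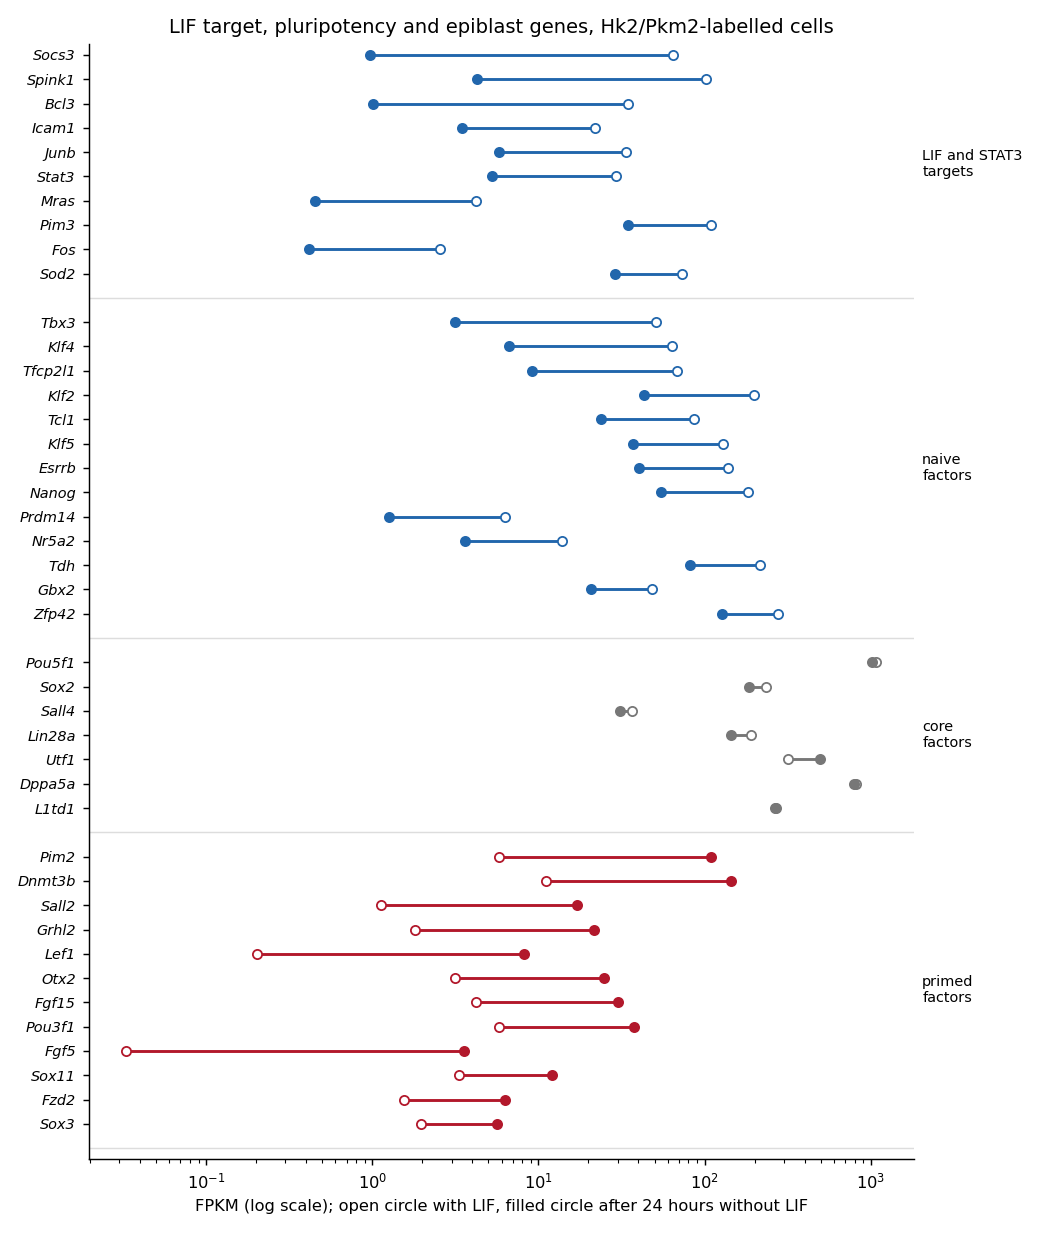
FPKM on a log axis for LIF targets, naive, core and primed factors, with an open circle for the LIF library and a filled circle for the 24 hour library, joined by a line that is red for 2-fold higher, blue for 2-fold lower and grey between. Most lines of the targets and naive factors run left, those of the core factors are short, and those of the primed factors run right.

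The list for DNA methylation and demethylation holds enzymes and other proteins of these processes. Of its 14 genes above 0 in both libraries, 2 were 2-fold higher, against 3.18% of all genes. They are the de novo methyltransferases Dnmt3b and Dnmt3a, the second with an uncertain value. Dnmt3b (mm9 chromosome 2, 153475186 to 153513466) stood at 11.2 FPKM with LIF and at 144 FPKM after 24 hours (3.57). Both of its expressed transcripts were higher, from 4.97 to 72.4 FPKM and from 6.20 to 71.2 FPKM. In normal cells Dnmt3b stood at 35.8 and 31.7 FPKM (-0.17), where 1 of these transcripts went from 19.2 FPKM to a listed 0 and the other from 16.6 to 31.7 FPKM. Dnmt3a stood at 1.45 and 12.4 FPKM (2.45), but the 2 libraries assigned this to different transcripts, and normal cells had 2.01 FPKM and a listed 0, so its ratio is uncertain. Dnmt1, which copies methylation at replication, stood at 58.5 and 58.1 FPKM, and its partner Uhrf1 at 92.3 and 83.3 FPKM. Dnmt3l, the catalytically inactive cofactor, stood at 279 and 202 FPKM (-0.46).

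In the TGF-beta family, 2 ligand genes were among the lower genes and members of other roles went both ways. Bmp4, the ligand that induces Id genes, stood at 80.0 and 15.1 FPKM (-2.33), and at 39.3 and 15 FPKM in normal cells (-1.33). Inhbb, the activin B subunit, stood at 17.2 and 0.707 FPKM (-3.42), with 8.17 and 0.688 FPKM in normal cells. Skil (SnoN), a repressor of SMAD activity, stood at 5.84 and 31.2 FPKM (2.23). Lefty1, a secreted Nodal inhibitor, stood at 7.39 and 18.8 FPKM (1.24), and the higher of these was still below both normal libraries (32.1 and 32.9 FPKM). Id1 stood at 126 and 77.9 FPKM (-0.69), while Id3, of the same family of inhibitory helix-loop-helix proteins, stood at 19.3 and 48.2 FPKM (1.27). The signal transducers Smad2 (16.7 and 3.87 FPKM, -1.86) and Smad4 (15.3 and 5.65 FPKM, -1.30) were lower. In normal cells Smad4 was lower by as much (-1.35) and Smad2 was level (0.06). In all, 2 Nodal and activin genes were 2-fold higher and 4 lower of 17, and 3 BMP and Id genes higher and 1 lower of 21, where 3.18% of all genes were higher and 3.47% lower. The 1 lower of 21 is near the share of all genes.

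Wnt and FGF pathway genes gave a few higher genes and medians near 0. Of 25 Wnt genes 4 were 2-fold higher, against 3.18% of all genes. They are the factors Lef1 and Tcf7l1 and the receptors Fzd2 and Fzd7. Tcf7l1 (Tcf3), a repressor of naive genes, stood at 22.6 and 59.4 FPKM (1.36), and Fzd7 at 20.7 and 53 FPKM (1.31). Fzd5 was the 1 lower gene, at 21.3 and 8.58 FPKM (-1.22). Axin2, a feedback target of beta-catenin, was low in both libraries (2.18 and 1.35 FPKM). Of 27 FGF and ERK genes 4 were higher, against the same 3.18%, and none was lower. Besides Fgf15 and Fgf5 these were the feedback inhibitors Spry1 (1.54 and 7.40 FPKM, 1.73) and Dusp4 (2.86 and 11.1 FPKM, 1.65). Other feedback and ERK-responsive genes stayed within 2-fold and had either sign, such as Spry4 (75.8 and 38.3 FPKM, -0.97), Dusp6 (63.4 and 45.8 FPKM, -0.46), Spred2 (9.68 and 16.4 FPKM, 0.70) and Etv5 (53.2 and 99.2 FPKM, 0.89).

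Immediate early genes, which respond within minutes to growth signals, had 4 of 21 members 2-fold lower, against 3.47% of all genes, and 1 higher, against 3.18%, with a median of -0.42. Egr1, a zinc finger factor, stood at 52.9 and 24.0 FPKM (-1.11), Nr4a1, an orphan nuclear receptor, at 28.2 and 12 FPKM (-1.17), and Fos, the AP-1 subunit, at 2.56 and 0.418 FPKM (-1.33). Klf6 was the higher one, at 4.42 and 10.1 FPKM (1.03).

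**Figure D3:**
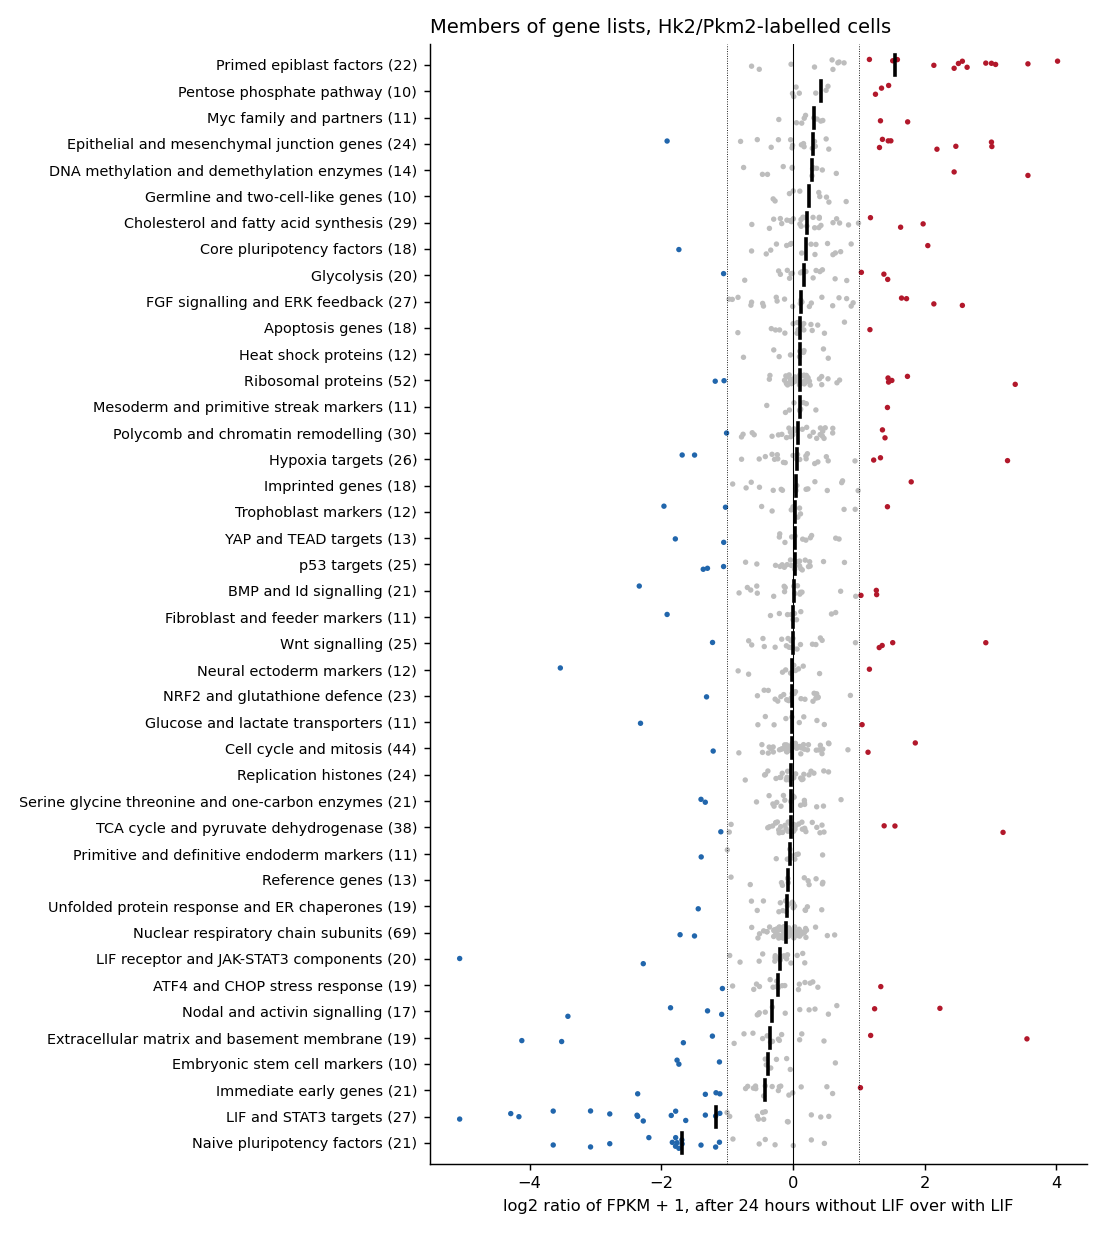
Log2 ratio (24 hours without LIF over LIF) of each member above 0 in both libraries, for lists with at least 10 such members (number in brackets), ordered by median (black bar), with dotted lines at 2-fold and a thin line at the median of all genes. Naive factors (-1.68) and LIF targets (-1.17) lie at the bottom and primed factors (1.55) at the top, while the medians of most metabolic, stress and lineage lists lie near 0.

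The introduced enzymes belong to glycolysis, so metabolic genes were described by step. Of 20 glycolytic genes above 0 in both libraries, 3 were 2-fold higher, 1 was lower and the median was 0.17. Over all genes 3.18% were higher and 3.47% lower, so the 1 lower gene is near the share of all genes. The 3 higher genes are the 3 subunits of phosphofructokinase, the committed step of glycolysis. Pfkl stood at 26.7 and 56.0 FPKM (1.04), Pfkm at 11 and 31.6 FPKM (1.44) and Pfkp at 4.56 and 13.5 FPKM (1.38). In normal cells the same 3 subunits were 2-fold higher as well, with log2 ratios of 2.38, 1.28 and 1.15. Read from its highest transcript alone, Pfkm was within 2-fold (0.56). Tigar, a phosphatase that lowers glycolytic flux, stood at 27.5 and 12.8 FPKM (-1.05). The abundant enzymes stayed within 2-fold, such as Aldoa (690.2 and 918 FPKM), Gapdh (451 and 577 FPKM) and Ldha (477 and 450.3 FPKM). Eno1 was listed at 0 in all 5 libraries, although every cell uses it.

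Of 11 glucose, lactate and pyruvate transporter genes, 1 was 2-fold higher and 1 lower, against 3.18% and 3.47% of all genes. The median was -0.013. Slc2a3 (GLUT3), a high-affinity transporter, stood at 193 and 38.0 FPKM (-2.31). Normal cells had 65.7 and 52.1 FPKM (-0.33), so the LIF library of the pair was the high one of the 4. Slc2a1 (GLUT1) stood at 151 and 113 FPKM (-0.42). Slc16a3 (MCT4), which exports lactate, stood at 29.3 and 61.8 FPKM (1.05), but 1 of its transcripts was 2-fold lower (-2.55).

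Of the 10 pentose phosphate genes 3 were 2-fold higher, against 3.18% of all genes, none was lower and the median was 0.43 (0.087 in normal cells). Tkt (transketolase) stood at 60.5 and 146 FPKM (1.25), Rpe at 5.21 and 14.8 FPKM (1.35), and Prps2, which makes the ribose donor of nucleotides, at 15.3 and 43.6 FPKM (1.45). Normal cells had the same order for Prps2 (1.40), and Tkt was level there (-0.08). Of 38 genes of the TCA cycle and pyruvate dehydrogenase 3 were higher and 1 was lower, against 3.18% and 3.47% of all genes. The isocitrate dehydrogenase subunits Idh3a (22.8 and 61.3 FPKM, 1.39) and Idh3b (23.9 and 71.8 FPKM, 1.55) were higher, and normal cells shared this for Idh3b (1.47) and not for Idh3a (0.03). The malic enzyme Me2 stood at 3.31 and 38.4 FPKM (3.19), and normal cells had 9.97 and 3.97 FPKM (-1.14). Tdh, the threonine dehydrogenase that mouse embryonic stem cells depend on, stood at 217 and 81.8 FPKM (-1.39) and at 225 and 89.4 FPKM in normal cells. Nuclear respiratory chain subunits were close to level, with 67 of 69 within 2-fold and a median of -0.10. The 2 lower subunits are near the 3.47% of all genes, and none was higher.

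In cholesterol and fatty acid synthesis 3 of 29 genes were 2-fold higher, against 3.18% of all genes, and none was lower (median 0.21). They are the sterol enzymes Cyp51 (4.80 and 21.8 FPKM, 1.98) and Ebp (3.40 and 12.7 FPKM, 1.64) and the desaturase Fads2 (12.2 and 28.9 FPKM, 1.18). Among 26 hypoxia targets 3 were higher and 2 lower, against 3.18% and 3.47% of all genes. Bnip3, a mitophagy receptor, stood at 1.55 and 23.4 FPKM (3.26), and at 5.37 and 26.4 FPKM in normal cells (2.10). Vegfa, the vascular growth factor, stood at 6.98 and 1.49 FPKM (-1.68). The hypoxia list therefore held members in both directions.

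The list of epithelial and mesenchymal genes holds cadherins, claudins and other junction proteins with their regulators and mesenchymal markers. Of its 24 genes 8 were 2-fold higher and 1 was lower, against 3.18% and 3.47% of all genes, with a median of 0.31. Of the 8, Grhl2 and Esrp1 are regulators and the others encode adhesion or junction proteins. Cdh1 (E-cadherin) stood at 33.0 and 94.4 FPKM (1.49), Epcam, an epithelial adhesion protein, at 22.7 and 63.8 FPKM (1.45), and the tight junction claudin Cldn6 at 1.66 and 11.2 FPKM (2.19). Esrp1, an epithelial splicing factor, stood at 0.17 and 8.51 FPKM (3.02). Vim (vimentin), the intermediate filament of mesenchyme, was the lower one, at 144 and 37.5 FPKM (-1.91). Normal cells had 56.0 and 125 FPKM of Cdh1 (1.15) and 100.4 and 44.6 FPKM of Vim (-1.15), the same directions. F11r (JAM-A) stood at 1.94 and 15.3 FPKM (2.48), but at 21.1 and 7.99 FPKM in normal cells (-1.30). With LIF, Cdh1, Epcam, Cldn6, Cldn7 and F11r were lower in the Hk2/Pkm2-labelled library than in the normal one, and Cldn6 was still below the normal LIF level (12.2 FPKM) after 24 hours.

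Gjb5 and the matrix genes Lama1 and Sparc stood among the 15 lowest ratios. Gjb5, a connexin of gap junctions, stood at 17.5 and 0.501 FPKM (-3.63). Lama1, the laminin alpha-1 chain of basement membrane, stood at 23.9 and 0.436 FPKM (-4.12), and at 17.4 and 2.52 FPKM in normal cells (-2.38). Its partner chains were not as low. Lamb1 stood at 14.2 and 20.1 FPKM (0.47) and Lamc1 at 78.8 and 46.7 FPKM (-0.74). Nid1 (nidogen), which links laminin to collagen, stood at 13.9 and 3.69 FPKM (-1.66). Enpp2 (autotaxin), a secreted enzyme that makes lysophosphatidic acid, was higher, at 0.0734 and 11.6 FPKM (3.56). Sparc, a matrix glycoprotein, stood at 74.3 and 5.60 FPKM (-3.51), but normal cells had a listed 0 with LIF and 50.3 FPKM after 24 hours, so its level was erratic between libraries. Over the 19 matrix genes above 0 in both libraries, 2 were 2-fold higher and 4 lower, against 3.18% and 3.47% of all genes.

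**Figure D4:**
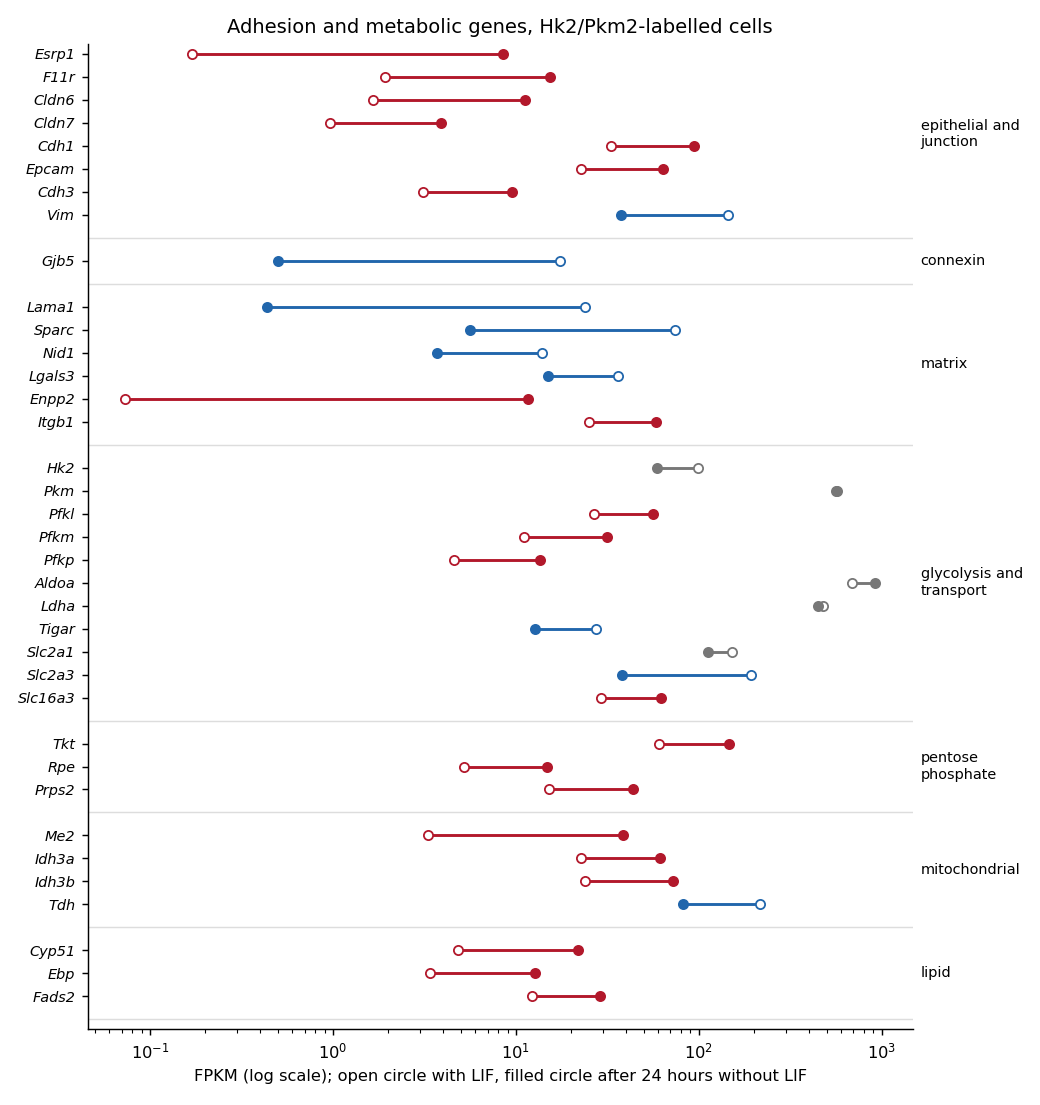
FPKM on a log axis for adhesion, matrix and metabolic genes, with an open circle for the LIF library and a filled circle for the 24 hour library, joined by a line that is red for 2-fold higher, blue for 2-fold lower and grey between. Epithelial and junction genes other than Vim run right, the connexin gene Gjb5 runs left, and Hk2, Pkm, Aldoa and Ldha move little.

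Further genes with extreme ratios were described outside these pathways, and all but Tubb3, a neural marker here, belong to no list. Gadd45g, a stress and cell cycle regulator, stood at 0.48 and 14.0 FPKM (3.34). Vrtn (vertnin), a factor of vertebral number, stood at 0.116 and 12.1 FPKM (3.56). Car4, a membrane carbonic anhydrase, stood at 0.402 and 10.4 FPKM (3.03), and Tmem54, a membrane protein, at 0.143 and 9.76 FPKM (3.23). In normal cells these 4 genes were 2-fold higher as well, with log2 ratios of 1.94, 2.48, 2.11 and 2.03. On the lower side, Tfeb, the master regulator of lysosome genes, stood at 20.7 and 1.69 FPKM (-3.01), and Lrrc34 at 25.7 and 2.22 FPKM (-3.05). Ftl1, the ferritin light chain that stores iron, stood at 176 and 27.1 FPKM (-2.65), and at 224 and 29.9 FPKM in normal cells (-2.87). Ferritin has close copies in the genome, so its value carries the uncertainty of multiply mapping reads. Tubb3, the neuronal tubulin, stood at 48.4 and 3.27 FPKM (-3.53), with 31.7 FPKM and a listed 0 in normal cells.

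The cell cycle, p53, heat shock, histone and reference lists had medians near 0. Of 44 cell cycle genes 41 were within 2-fold, with a median of -0.019. The 2 higher and 1 lower are near the 3.18% and 3.47% of all genes. Ccnd3 (cyclin D3) was lower (192 and 82.3 FPKM, -1.21), as in normal cells (-1.26). The mitotic cyclin Ccnb1 (18.6 and 42.2 FPKM, 1.14) and the factor Myb (1.08 and 6.55 FPKM, 1.86) were higher, and in normal cells Ccnb1 stood at -0.98. Of 25 p53 targets none was 2-fold higher and 3 were lower, against 3.47% of all genes. The lower genes were Aen (50.5 and 19.1 FPKM), Perp (11.7 and 4.18 FPKM) and Tigar. Cdkn1a (p21), the best known p53 target, stood at 8.29 and 9.10 FPKM (0.12). The 12 heat shock genes and 24 replication histone genes above 0 in both libraries were all within 2-fold, and so were the 13 reference genes (median -0.069).

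Some values differed sharply between single libraries, and the reason was not tested. Rps3a1, a ribosomal protein gene with many processed copies, stood at 10.2 FPKM with LIF and at 116 FPKM after 24 hours (3.38), and at 124 and 10.1 FPKM in normal cells (-3.49). Of 77 ribosomal protein genes, 17 were listed at 0 in both libraries of the pair and 8 in 1 of them, although every cell makes them. Of the 52 above 0 in both, 5 were 2-fold higher and 2 lower, against 3.18% and 3.47% of all genes. In normal cells none of 57 was 2-fold higher and 3 were lower, against 2.33% and 2.93% of all genes there. Over all genes, 1210 were above 0 with LIF and listed at 0 after 24 hours, and 1343 the other way. Of these, 19 and 22 had at least 20 FPKM in the library above 0. Examples are the proteasome subunit gene Psmc2 (92.3 FPKM and a listed 0) and the RNA-binding protein gene Hnrnpk (a listed 0 and 107 FPKM). Such genes are not among the 12940.

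The same withdrawal was sequenced in normal cells, where 302 of 12936 genes were 2-fold higher (2.33%) and 379 lower (2.93%), together 681 or 5.26%. In 11759 genes above 0 in all 4 libraries, the ratios of the 2 kinds of cell correlated across genes with Pearson's r of 0.416 and Spearman's rho of 0.384, where genes are not independent replicates. Of the 389 genes 2-fold higher in Hk2/Pkm2-labelled cells 92 were also 2-fold higher in normal cells, which is 23.7% of the former and 32.4% of the latter, against 2.42% of all 11759 genes. Of the 430 genes 2-fold lower 153 were also lower in normal cells, 35.6% of the former and 42.7% of the latter, against 3.04%. A further 20 of the 389 higher genes (5.14%) were 2-fold lower in normal cells, against 3.04% of all 11759 genes. Of the 430 lower genes 19 (4.42%) were 2-fold higher in normal cells, against 2.42%. Opposite directions were thus also above the share of all genes. The genes beyond 2-fold had a median of 1.35 on the higher side and -1.37 on the lower side, and in normal cells their medians were 0.38 and -0.61. These genes were chosen by their ratio in the Hk2/Pkm2-labelled pair, so a smaller median in the other pair follows in part from the choice. Whether the responses differ between the kinds of cell was not tested, since each group has 1 library.

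By list, the directions were shared for LIF targets (median -1.17, and -1.36 in normal cells), naive factors (-1.68 and -1.28) and primed factors (1.55 and 0.86). In normal cells 16 of 27 LIF targets and 14 of 21 naive factors were 2-fold lower, against 2.93% of all genes there. Of 20 primed factors 10 were 2-fold higher in normal cells, against 2.33%. Socs3, Bcl3, Spink1, Tbx3, Klf4 and the connexin gene Gjb5 were at least 2-fold lower in both kinds of cell, and Pim2, Otx2, Vrtn and Lef1 at least 2-fold higher. Genes with a 2-fold ratio in the Hk2/Pkm2-labelled pair and a near-level one in normal cells include Dnmt3b, Tkt, Idh3a, Cyp51 and Slc2a3. For Dnmt3b the normal ratio is uncertain, since 1 transcript went from 19.2 FPKM to a listed 0 and the other from 16.6 to 31.7 FPKM. Klf2, at -2.19 and -0.80, lies between.

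**Figure D5:**
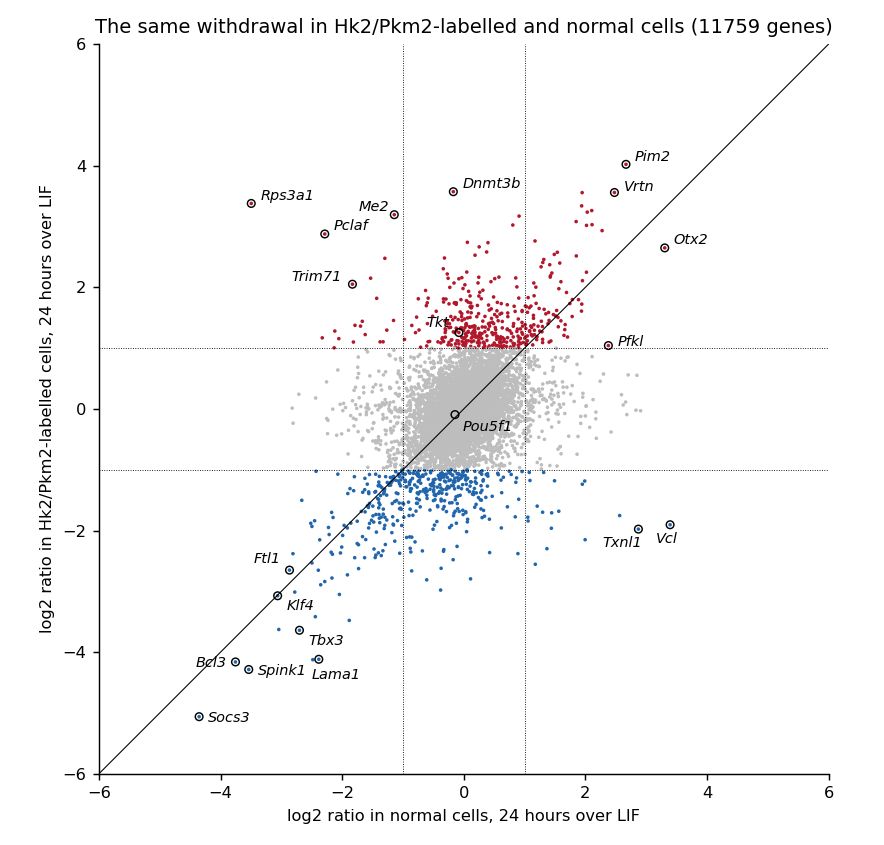
Log2 ratio, 24 hours without LIF over LIF, of 11759 genes in normal cells (x axis) and in Hk2/Pkm2-labelled cells (y axis), 1 library for each culture and kind of cell, coloured red for 2-fold higher and blue for 2-fold lower in the latter, with dotted lines at 2-fold and a diagonal of equal ratios. Socs3, Bcl3 and Klf4 lie at the lower left, Pim2, Otx2 and Vrtn at the upper right, and Rps3a1 (3.38 and -3.49) at the upper left.

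After 40 days without LIF the Hk2/Pkm2-labelled cells were sequenced once more, and these values are set beside the pair without a ratio, since any ratio would share the LIF library. Socs3 stood at 1.5 FPKM, Spink1 at 19.8 FPKM and Klf4 at 12.3 FPKM, all below their LIF level. Nanog (29.6 FPKM), Esrrb (29.0 FPKM) and Zfp42 (40.9 FPKM) were below their 24 hour level. Pim2 stood at 263 FPKM, Dnmt3b at 114 FPKM, Otx2 at 27.1 FPKM and Fgf5 at 7.46 FPKM. Lama1 did not stay low, at 77.3 FPKM, which was above its level with LIF. Pou5f1 stood at 807 FPKM.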

How the data were processed

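RNA of 5 mouse embryonic stem cell libraries, 1 per group, was prepared with the TruSeq RNA v2 kit, per the labels' protocols. That kit does not mark strand, so overlapping and antisense genes were not separated. The authors deposited FPKM for 28698 RefSeq transcripts, made with TopHat2 2.0.7, Cufflinks 2.0.2 and mm9, per the submitters' processing notes. The sources used here do not say how multiply mapping reads were treated.

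Transcript FPKM was paired with symbols through RefSeq (GRCm38.p6; 28066 matched, 632 did not) and summed per gene. The 337 genes with a hyphen for a value were left out of 22267, and 12940 of the remaining 21930 were above 0 in both libraries. Ratios used log2(FPKM + 1), Python 3.11.15 and pandas 2.3.3, and were checked on simulated data. Coordinates are GENCODE vM1 (mm9). Depth was compared through the smallest values of 1509 low transcripts.

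No group has a replicate, so no test was run. The genes, the 45 lists and the rule for named genes were chosen with earlier results of these data known. The rule takes the 15 highest and lowest ratios, up to 5 members per list past 2-fold, a short set of state and lineage genes, genes that moved alike or oppositely in normal cells, and genes listed at 0. Members within 2-fold and Jak3 are named beyond it, with their values seen. Alternatives were other pseudocounts, low-value filters, scalings and transcript choices.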

Additional observations from a re-analysis of the deposited data

Results flagged for a closer look

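The 16 genes below, 8 per direction, were past 2-fold after 24 hours in Hk2/Pkm2-labelled cells and had the largest opposite ratios in normal cells. With 1 library per group the difference was not tested. Higher in Hk2/Pkm2-labelled cells and lower in normal cells were Rps3a1 (log2 ratios 3.38 and -3.49), the PCNA-binding protein gene Pclaf (2.88 and -2.29), Trim71 (2.05 and -1.83), Edem1 (1.37 and -1.79), Klhl22 (1.28 and -2.12), Adnp2 (1.17 and -2.33), Rrp7a (1.15 and -2.06) and Diablo (1.1 and -1.81).

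Lower in Hk2/Pkm2-labelled cells and higher in normal cells were Pmf1 (-2.15 and 1.99), Txnl1 (-1.98 and 2.87), the focal adhesion gene Vcl (-1.91 and 3.39), the myosin gene Myo10 (-1.75 and 2.56), Phf11d (-1.68 and 1.56), Asrgl1 (-1.24 and 1.95), Shoc2 (-1.19 and 1.99) and Arhgef3 (-1.18 and 1.49). Vcl stood at 14.1 and 3.04 FPKM in the Hk2/Pkm2-labelled pair, and its normal value after 24 hours was 26.6 FPKM.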

How the results depend on the processing

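The counts of 2-fold genes, 411 higher and 449 lower, depend on how low values are treated. With a pseudocount of 0.1 they were 910 and 891. Counting genes above 0 in either library gave 623 higher, because genes listed at 0 in 1 library then enter, and 647 lower. Under the 0.5 pseudocount, the mean filter of 1 FPKM, centring, quantile scaling, the highest transcript, and genes above 0 in all 4 libraries (added after seeing the data), the counts ran from 389 to 527 higher and from 430 to 583 lower. No named gene past 2-fold, and no list median of at least 0.5 in size, changed sign where it had a value. List medians did depend on low values. Of the 45, 13 were marked as moved with a pseudocount of 0.1, 12 under the mean filter and 1 with 0.5. All 45 were marked as the same under centring, quantile scaling and the highest transcript. With the highest transcript, Dnmt3a, Tead4, Tfap2c and Tmem54 had none, since that transcript was listed at 0 in 1 library, and Gata6 had none under the mean filter. Of 141 named genes, Sox1 passed 2-fold only with 0.1 (-1.19), Krt8 came just short of it under quantile scaling, and Pfkm (0.56) and Shoc2 (-0.79) were within 2-fold with the highest transcript. No paired analysis was possible because each group has 1 library. Depth limits genes near 0, where 1 fragment in the 24 hour library is worth 1.13 times that in the LIF library.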

Other observations

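Genes that stood 2-fold apart were spread over the chromosomes. Per chromosome, 2.51% (chromosome 11) to 4.39% (chromosome 12) of the genes were 2-fold higher and 2.58% (chromosome X) to 5.90% (chromosome 14) were 2-fold lower. Among 781 placed genes there were 46 pairs whose left ends lay within 50000 bases, of which 12 were both higher, 18 both lower and 16 opposite. Nanog and the glucose transporter gene Slc2a3, whose left ends lie 20320 bases apart on chromosome 6, were both lower (-1.73 and -2.31). The kallikrein genes Klk11 and Klk10 were both lower (-1.24 and -2.53), as were Tmc6 and Tmc8 (-1.43 and -1.35). Neighbours also parted, with Sall2 higher (3.08) and Tox4 lower (-1.69), and Wdr6 higher (2.25) and Arih2 lower (-2.26).

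Most 2-fold genes have 1 transcript in the table (664 of 860). Of the 196 with more, 12 had a transcript 2-fold in the opposite direction, among them the actin regulator Enah (gene -1.67, transcript 4.66) and Pcbp2 (gene -1.09, transcript 5.54).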
